A study of Danio rerio with 12 samples.

Results

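The question was which transcripts respond differently to beclomethasone in zebrafish (Danio rerio) embryos of 72 and of 24 hours post fertilisation (hpf). The measure was the effect at 72 hpf minus the effect at 24 hpf, each effect being the log2 of the beclomethasone over the DMSO signal. It was computed over 12 arrays from 4 groups of 3. Embryos of 72 hpf had been 3 h in 25 µM beclomethasone, and their controls of 72 hpf 3 h in 0.1% DMSO. Embryos of 24 hpf had been 3 h in 25 µM beclomethasone, and their controls of 24 hpf 3 h in 0.1% DMSO. All embryos were whole, of the AB wild-type strain, and carried no transgene, so that a signal is the sum over all tissues. The labels call the samples triplicate experiments without saying whether they came from separate clutches, and p-values therefore measure only the spread between these samples. The comparison covers transcripts that the array detected at both stages, that is, those the scanner software marks as well above background on every array of the beclomethasone or the DMSO group at 72 hpf, and of either group at 24 hpf. These were 20931 of the 25164 genes and unnamed probes tested, of which 10728 carry a gene symbol and 10203 do not. In 20157 of them the signal was measured in all 4 groups. This means well above background on every array of 3 groups and on at least 2 of the 3 arrays of 24 hpf DMSO. The other 774 fell short of this in at least 1 group, and 7 of those were called. Of the 4233 genes and probes that were not detected at both stages, 32 were called.

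Beclomethasone is a synthetic glucocorticoid. It binds the glucocorticoid receptor, which then enters the nucleus and switches target genes on or off, some directly at receptor binding sites and others through regulators that the receptor controls. Zebrafish have a single gene for this receptor, nr3c1, and cortisol is their natural hormone. Known targets include brakes on the hormone itself (fkbp5, hsd11b2), on inflammation (tsc22d3, nfkbia genes) and on growth signalling (ddit4), together with genes of glucose and amino acid metabolism. At 24 hpf the embryo has a segmented trunk, its first blood cells and a beating heart, and many organs are still forming. By 72 hpf it has usually hatched, and its eyes, liver, pancreas and skin ionocytes are differentiated.

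On 11 arrays 31210 to 37401 of the 43803 spots that are no controls gave signal well above background, and on 24 hpf DMSO replicate 3 only 16764 did. The lowest signal well above background on that array was 215 scanner units, against 11.8 to 19.5 on the others, so that its weak signals carry less information. The calls of the main fit, the gene lists and the tests of the named genes were therefore repeated without it. The values given for other probes of a gene were not. Replicates correlated at 0.9937 to 0.9944 in 72 hpf beclomethasone, 0.9872 to 0.9884 in 72 hpf DMSO, 0.9921 to 0.995 in 24 hpf beclomethasone and 0.9315 to 0.9931 in 24 hpf DMSO. The stage labels matched the markers: in DMSO, 8 of 8 photoreceptor, 7 of 7 liver and 3 of 3 lens genes were higher on every 72 hpf array than on any 24 hpf array, as were 5 of 6 of the exocrine pancreas. Of the segmentation genes 4 of 6 were lower at 72 hpf, as were 3 of 4 of the hatching gland, whose other gene was higher. The arrays lay on 3 slides. The first held the 24 hpf DMSO arrays and 24 hpf beclomethasone replicate 1, the second 24 hpf beclomethasone replicates 2 and 3 with 72 hpf DMSO replicates 1 and 2, and the third 72 hpf DMSO replicate 3 with the 72 hpf beclomethasone arrays. Slide and treatment therefore overlap. The value from a fit with slide as a block is given for a named gene where it passed the test there or moved by over 1.5 times. Genes named after their values were seen are left out of this. The calls it made in each gene list are counted after the lists. Every sign given here follows the treatment named in the scanner files. In the authors' deposited table of log2 values the beclomethasone and DMSO names are the other way round at both stages, and with its names all 90 differences called among the named genes turn sign. With each of its columns joined to the scanner array it matches, 0 turn and 81 stay called.

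The largest differences in response between the stages included those of rhcga, the integrin genes itga6b and itgb4 and the muscle gene tnni2b.2. The effect differed between 72 and 24 hpf for 1554 of the 20931 genes and probes (7.42%), against 6.3% of all 25164 tested. It was more positive at 72 hpf for 614 (2.93%) and more negative for 940 (4.49%). These are calls at an adjusted p below 0.05 in limma's moderated test, with Benjamini-Hochberg adjustment over all 25164. A difference of at least 1 on the log2 scale was reached by 185 positive and 224 negative calls. Of the calls, 926 had a gene symbol, 322 positive and 604 negative. The split depends on the scaling: with each array centred on its median in place of its 75th percentile, 980 were positive and 858 negative, and the median of all differences was 0.0725 with that scaling, 0.0371 in the main fit and -0.0728 after quantile normalization. Without 24 hpf DMSO replicate 3 the count was 2757 (13.2%), with 1376 positive (6.57%) and 1381 negative (6.6%), and 1510 of the 1554 were called again with the same sign. With slide as a block, the 24 hpf effect rests on 1 beclomethasone against 3 DMSO arrays and the 72 hpf effect on 3 against 1. The differences then had the same sign for all 1554, lay within 1.5-fold of the main value for 1499, and passed the test for 62, with 64 calls in all and 3432 at an unadjusted p below 0.05. Leaving out single arrays gave 643 to 2757 calls.

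The 2 effects themselves were tested in the same fit. At 72 hpf 2547 of the genes and probes changed (12.2%), 1189 higher (5.68%) and 1358 lower (6.49%). At 24 hpf 4637 changed (22.2%), 2276 higher (10.9%) and 2361 lower (11.3%). With only the arrays of each stage in the fit, 2880 changed at 72 hpf and 1291 at 24 hpf. Which stage had more calls therefore depends on the fit. With median centring the 24 hpf split was 1835 higher and 3916 lower. The counts were 733 at 72 hpf and 860 at 24 hpf when slide was a block. Across the 20931 genes and probes, which share arrays and are not independent replicates, the effects at 72 and 24 hpf correlated at 0.327 (Pearson) and 0.183 (Spearman). The Pearson value was 0.371 without 24 hpf DMSO replicate 3. Effects called at both stages numbered 1154. They had the same direction for 1037, of which 153 nevertheless differed in size, and opposite directions for 117. All 117 were also called as different. Since effects and difference come from the same fit, this follows from the opposite calls and adds no evidence. A further 1393 were called at 72 hpf only and 3483 at 24 hpf only, and the difference itself was called for 483 and 744 of these. For the rest, a call at a single stage does not show that the effects differed.

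**Figure D1:**
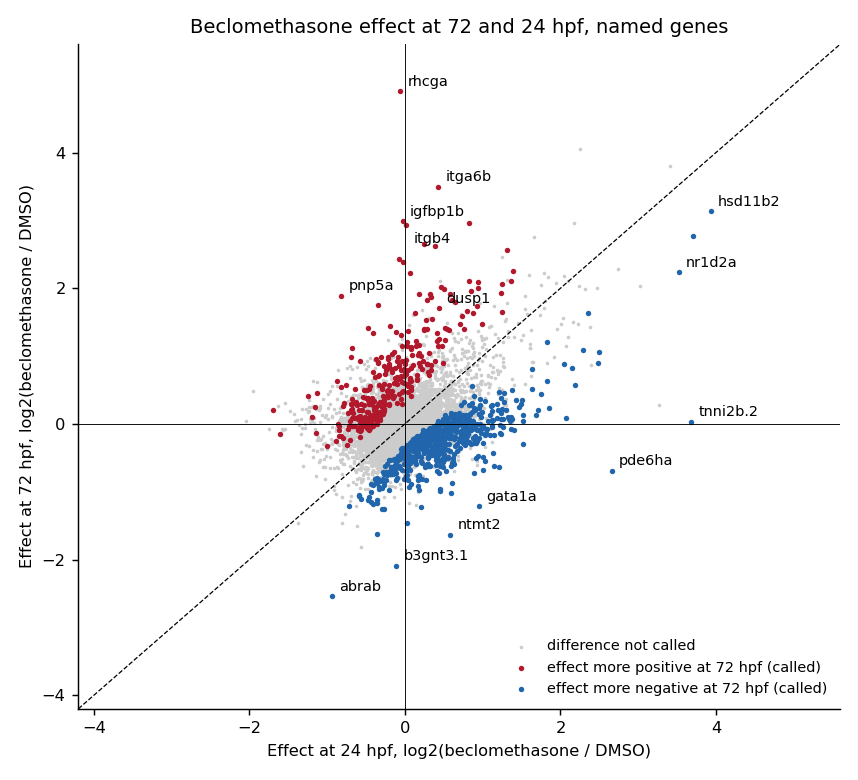
Effect of beclomethasone at 72 hpf (vertical axis) against 24 hpf (horizontal axis), both as log2 of beclomethasone over DMSO, for named genes measured in all 4 groups. Red points have a called difference that is more positive at 72 hpf and blue points one that is more negative, the dashed line marks equal effects, and rhcga stands apart with 4.91 at 72 hpf and -0.06 at 24 hpf.

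The calls fell into a few recurring forms. Of the negative differences, 510 rose at 24 hpf and were not called at 72 hpf, 244 fell at 72 hpf and were not called at 24 hpf, and 67 fell at 72 hpf and rose at 24 hpf. A further 44 fell at both stages and 37 rose at both. Of the positive differences, 239 rose at 72 hpf and were not called at 24 hpf, and 234 fell at 24 hpf and were not called at 72 hpf. Another 50 rose at 72 hpf and fell at 24 hpf, 68 rose at both stages and 4 fell at both. These forms were counted with the 75th percentile scaling alone, and the split of the calls given above moves with the scaling.

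The largest positive difference belonged to rhcga, which encodes a Rhesus glycoprotein of the family that moves ammonia across cell membranes. Signals are given as multiples of each array's 75th percentile, and those of different genes cannot be set against each other. For rhcga they were 2.86, 3.38 and 3.98 in 72 hpf beclomethasone and 0.0809, 0.0864 and 0.203 in 72 hpf DMSO. At 24 hpf they were 0.0855, 0.0403 and 0.0415 in beclomethasone and 0.0311, 0.0781 and 0.0672 in DMSO. The 72 hpf groups were far apart and the 24 hpf groups overlapped. The effect was 4.91 ± 0.46 at 72 hpf (log2 ± SE from the fit, 3 arrays per group, adjusted p = 0.000159), a 30-fold rise, and -0.06 ± 0.46 at 24 hpf. The difference was 4.97 ± 0.65 (adjusted p = 0.00379). It was 3.41 and not called in the fit that has slide as a block. After quantile normalization 0 of the ionocyte genes, rhcga included, had a called positive difference. In whole embryos a higher signal from more cells of a type cannot be told apart from more RNA per cell, here and in every result below.

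A pair of integrin genes whose products join each other followed. Together, integrin α6 and integrin β4 form the receptor that anchors basal skin cells to the basement membrane in hemidesmosomes. The α6 gene itga6b had signals of 15.7, 16.8 and 14 in 72 hpf beclomethasone and 1.29, 1.77 and 1.13 in 72 hpf DMSO, against 1.97, 2.08 and 1.81 in 24 hpf beclomethasone and 1.39, 1.48 and 1.48 in 24 hpf DMSO. The β4 gene itgb4 had 8.21, 6.46 and 6.56 in 72 hpf beclomethasone and 0.948, 1.03 and 0.809 in 72 hpf DMSO. Its 24 hpf signals were 0.953, 1.02 and 1.05 in beclomethasone and 1.18, 1.02 and 0.821 in DMSO. The DMSO arrays of the 2 stages overlapped for both genes, and the 72 hpf beclomethasone arrays lay far above all others. The differences were 3.07 ± 0.21 for itga6b (adjusted p = 0.000176) and 2.91 ± 0.21 for itgb4 (adjusted p = 0.000219). With slide as a block they were 3.34 and 3.19, and both again passed the test. The other probes of itgb4 gave called differences of 3.28 and 2.34.

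Other genes were also among the 10 largest positive differences. The gene igfbp1b encodes a binding protein that holds back insulin-like growth factors. It had signals of 4.53, 3.03 and 4.32 in 72 hpf beclomethasone and 0.715, 0.28 and 0.597 in 72 hpf DMSO, and at 24 hpf 0.0402, 0.0322 and 0.0355 in beclomethasone and 0.027, 0.0266 and 0.068 in DMSO. The 24 hpf groups overlapped near the lower end of the array's range. Its difference was 3.02 ± 0.60 (adjusted p = 0.0202). For g0s2, whose mammalian product inhibits the lipase that opens fat stores, the effect was 2.43 ± 0.25 at 72 hpf and -0.08 ± 0.25 at 24 hpf, and the difference 2.51 ± 0.36 (adjusted p = 0.00552). The mitochondrial uncoupling protein gene ucp3 had 3.9, 4.07 and 4.39 in 72 hpf beclomethasone and 0.493, 0.597 and 1 in 72 hpf DMSO. Its effect was 2.63 ± 0.27 at 72 hpf and 0.39 ± 0.27 at 24 hpf, and the groups of 24 hpf overlapped. Its difference was 2.24 ± 0.39, and 1.58 without a call with slide as a block. The regulator of G protein signalling gene rgs2 rose by 2.66 ± 0.16 at 72 hpf against 0.25 ± 0.16 at 24 hpf, where the change was not called. The sulfotransferase gene sult2st3 had a difference of 2.15 ± 0.51 (adjusted p = 0.0407) on signals of 1.19, 1.05 and 0.83 in 72 hpf beclomethasone and 0.264, 0.309 and 0.127 in 72 hpf DMSO. Blocking on slide gave 3.29 without a call. Its other probe was not detected at both stages.

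**Figure D2:**
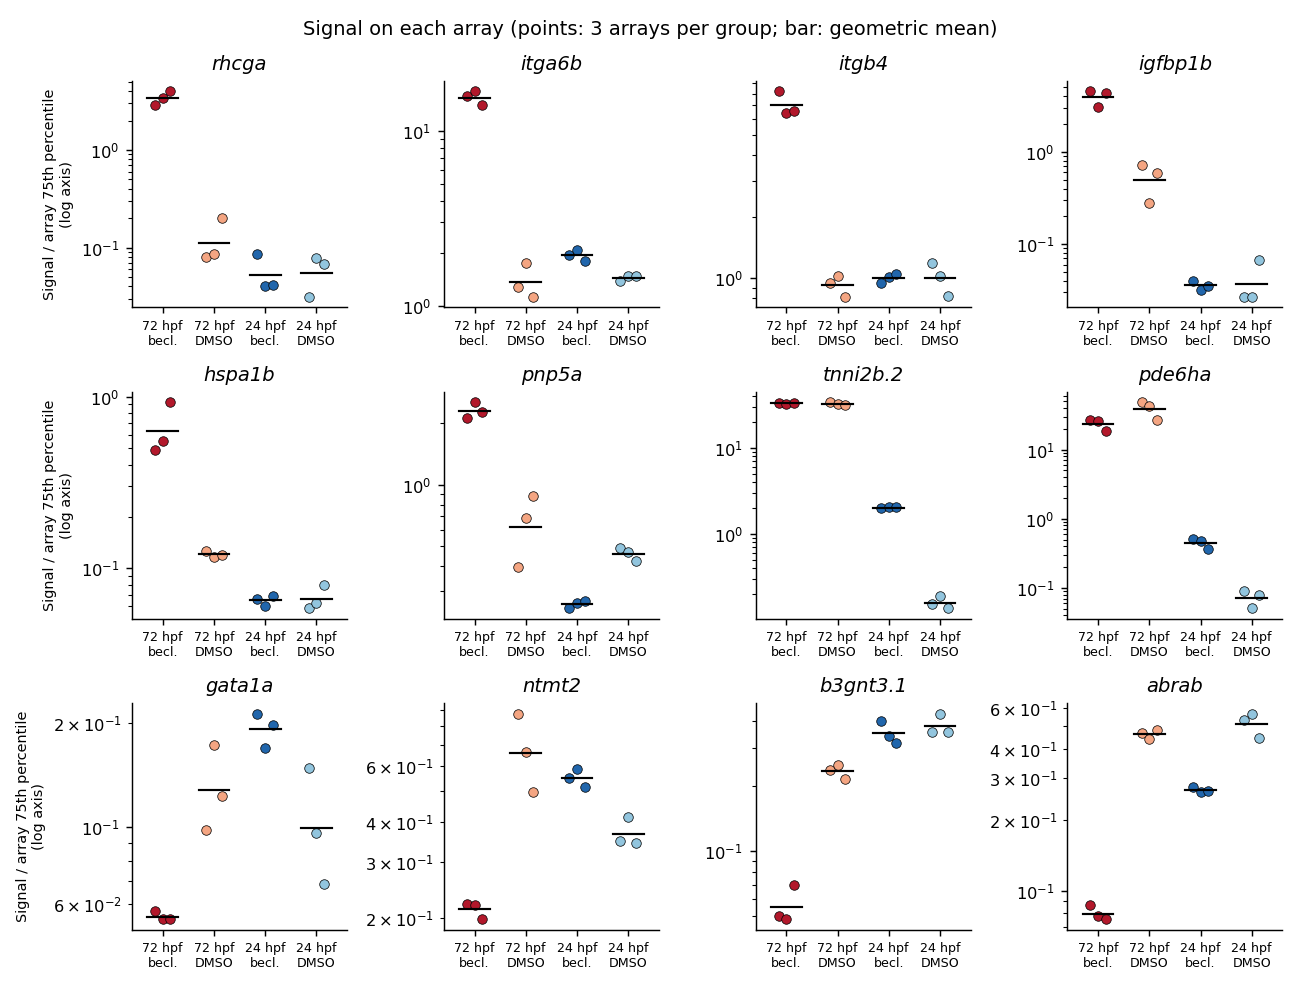
Signal on each of the 12 arrays for 12 named genes, as a multiple of the array's 75th percentile on a logarithmic axis. Each point is 1 array and each bar the geometric mean of the 3 arrays of a group. The groups run from 72 hpf beclomethasone at the left to 24 hpf DMSO at the right, and the first 6 genes are highest in 72 hpf beclomethasone.

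The largest negative differences came mainly from rises at 24 hpf. The leading gene was tnni2b.2, which encodes a troponin I of fast skeletal muscle, the subunit that blocks contraction when calcium is low. It had signals of 33.5, 32 and 33.3 in 72 hpf beclomethasone and 33.6, 31.9 and 31.1 in 72 hpf DMSO. At 24 hpf it had 1.97, 2.02 and 2.05 in beclomethasone and 0.152, 0.188 and 0.135 in DMSO. The 72 hpf groups overlapped at a high level, while at 24 hpf the beclomethasone arrays lay 12.8-fold above DMSO and still far below the level of 72 hpf. The difference was -3.65 ± 0.15 (adjusted p = 1.81e-05). With slide as a block it was -3.57, which also passed the test. The zebrafish genome holds several near-identical troponin I genes, so that the signal may be shared between them.

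A photoreceptor and a muscle gene had the same form. The gene pde6ha encodes the inhibitory subunit of the phosphodiesterase of cones. Its signals were 26.9, 26.4 and 18.9 in 72 hpf beclomethasone and 48.3, 43.4 and 26.9 in 72 hpf DMSO, against 0.516, 0.469 and 0.369 in 24 hpf beclomethasone and 0.0907, 0.0505 and 0.0775 in 24 hpf DMSO. The effect was -0.69 ± 0.28 at 72 hpf, which was not called, and 2.66 ± 0.28 at 24 hpf. Its difference was -3.35 ± 0.40 (adjusted p = 0.00248), and a second probe gave -1.74 without a call. The gene casq2 encodes calsequestrin, which stores calcium in the sarcoplasmic reticulum. It had 2.42, 2.35 and 2.42 in 72 hpf beclomethasone and 1.89, 2.29 and 2.65 in 72 hpf DMSO, and 2.31, 2.32 and 1.53 in 24 hpf beclomethasone and 0.36, 0.575 and 0.531 in 24 hpf DMSO. Its difference was -1.98 ± 0.30 (adjusted p = 0.00727), but its other probe gave -0.16 without a call, so that the 2 probes disagree.

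Further negative differences were in genes of other kinds. The cholesterol 25-hydroxylase-like gene ch25hl1.1 had effects of -0.64 ± 0.15 at 72 hpf and 1.22 ± 0.15 at 24 hpf, called in both cases, and a difference of -1.86 ± 0.21. The cytokine gene il15l had signals of 0.199, 0.182 and 0.204 in 24 hpf beclomethasone and 0.0701, 0.0659 and 0.0679 in 24 hpf DMSO. Its difference of -1.82 ± 0.14 (adjusted p = 0.000239) also passed with slide as a block, at -2.03, while another of its probes gave -1.03 without a call. The ankyrin repeat gene asb12b had a difference of -1.77 ± 0.27 and drll.2 one of -1.68 ± 0.35, both with a called rise at 24 hpf. A second probe of drll.2 gave -0.79 without a call. By contrast, b3gnt3.1, a glycosyltransferase gene, fell at 72 hpf. Its signals were 0.0499, 0.0482 and 0.0693 in 72 hpf beclomethasone and 0.239, 0.252 and 0.215 in 72 hpf DMSO, with 0.402, 0.343 and 0.317 in 24 hpf beclomethasone and 0.358, 0.434 and 0.355 in 24 hpf DMSO. The 24 hpf groups overlapped, and the difference was -1.98 ± 0.22 (adjusted p = 0.00181).

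In 117 cases the effects at 72 and 24 hpf were called in opposite directions. These were counted without slide as a block. The second slide held beclomethasone arrays of 24 hpf and DMSO arrays of 72 hpf. An offset of that slide would thus shift the effects at 72 and 24 hpf in opposite directions, which was not tested. The purine nucleoside phosphorylase gene pnp5a had 2.13, 2.54 and 2.27 in 72 hpf beclomethasone and 0.395, 0.69 and 0.878 in 72 hpf DMSO, against 0.248, 0.264 and 0.27 in 24 hpf beclomethasone and 0.49, 0.469 and 0.421 in 24 hpf DMSO. No array of one treatment overlapped the other at either stage. It rose by 1.89 ± 0.24 at 72 hpf, its effect at 24 hpf was -0.82 ± 0.24 (adjusted p = 0.0401), and the difference was 2.71 ± 0.34. Other probes gave called values of 3.08 and 2.87, the second not detected at both stages. With slide as a block pnp5a had effects of 1.39 at 72 hpf and -0.89 at 24 hpf, and its difference was not called. The pyruvate dehydrogenase kinase gene pdk2b, whose product turns off the entry of pyruvate into the citric acid cycle, had 5.25, 5.19 and 4.29 in 72 hpf beclomethasone and 1.82, 1.83 and 1.84 in 72 hpf DMSO. At 24 hpf it had 1.43, 1.17 and 1.25 in beclomethasone and 1.85, 1.83 and 1.64 in DMSO. Its difference of 1.89 ± 0.14 (adjusted p = 0.000245) stayed called with slide as a block, at 1.72. Another probe of pdk2b detected at both stages gave effects of 3.24 at 72 hpf and 2.41 at 24 hpf and a difference of 0.82 that was not called, so that the probes disagree on the direction at 24 hpf.

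The opposite crossing was seen in gata1a, the master regulator of red blood cell genes, and in ntmt2, an N-terminal protein methyltransferase gene. Signals of gata1a were 0.0572, 0.0544 and 0.0542 in 72 hpf beclomethasone and 0.0985, 0.172 and 0.123 in 72 hpf DMSO. At 24 hpf they were 0.213, 0.17 and 0.198 in beclomethasone and 0.148, 0.0965 and 0.0688 in DMSO. The beclomethasone arrays all lay below DMSO at 72 hpf and all above it at 24 hpf. The difference was -2.16 ± 0.38 (adjusted p = 0.0132), and a second probe gave a called -1.95. For ntmt2 the effect was -1.63 ± 0.18 at 72 hpf and 0.58 ± 0.18 at 24 hpf (adjusted p = 0.0478), and the difference -2.21 ± 0.25. Without 24 hpf DMSO replicate 3 the effects at 24 hpf were 0.69 for gata1a and 0.54 for ntmt2. Neither was called in limma's test there (adjusted p = 0.0642 and 0.0804), although both differences were, so that the rises at 24 hpf are uncertain.

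Most known targets of the glucocorticoid receptor rose at each stage. Of 29 such genes, 21 rose and 1 fell at 72 hpf, and 17 rose and 1 fell at 24 hpf. The median effect was 1.42 at 72 hpf and 0.57 at 24 hpf. The difference was called positive for 6 and negative for 1, with a median of 0.39 against 0.0371 over all members. Without 24 hpf DMSO replicate 3 these counts were 9 and 3, and with slide as a block 3 and 0 with a median of 0.22. The list is of genes known as targets in general, and its direction in these samples was known when it was written. The counts of this list and of those below are to be read against the shares over all genes and probes. These were 5.68% risen and 6.49% fallen at 72 hpf, and 10.9% and 11.3% at 24 hpf. For the difference they were 2.93% positive and 4.49% negative. An unadjusted p below 0.05 for the difference was reached in limma's test by 5768 of the 20931 genes and probes. With slide as a block 3432 of the 20931 reached it.

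**Figure D3:**
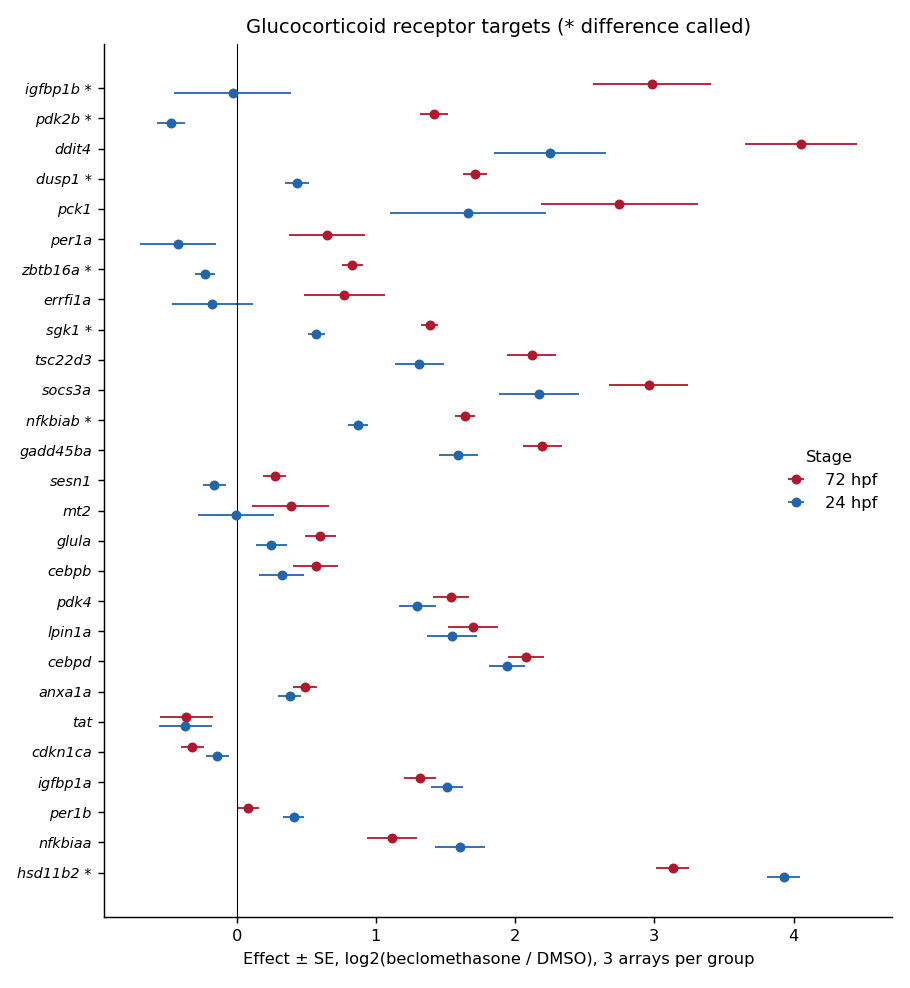
Effect of beclomethasone at 72 hpf (red) and 24 hpf (blue) on 27 known targets of the glucocorticoid receptor, as log2 of beclomethasone over DMSO with the SE from the fit of 3 arrays per group. Stars mark called differences, and fkbp5 and klf9 are left out because most of their 24 hpf DMSO signals were not well above background.

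The receptor's own brakes and partners came first. The gene nr3c1 encodes the receptor, and its difference of 0.22 ± 0.12 was not called. It had 0.412, 0.437 and 0.447 in 72 hpf beclomethasone and 0.499, 0.482 and 0.533 in 72 hpf DMSO, and 0.414, 0.455 and 0.478 in 24 hpf beclomethasone and 0.655, 0.55 and 0.624 in 24 hpf DMSO. It fell at 24 hpf (-0.44 ± 0.09, adjusted p = 0.00859), but other probes gave effects of 0.02 and -0.04 at that stage and differences of -0.19 and -0.17. The gene hsd11b2, whose enzyme inactivates cortisol, had 17, 18.6 and 16.4 in 72 hpf beclomethasone and 1.73, 2.31 and 1.92 in 72 hpf DMSO. At 24 hpf it had 3.58, 3.72 and 3.52 in beclomethasone and 0.263, 0.239 and 0.21 in DMSO. It rose by 3.13 ± 0.12 at 72 hpf and by 3.93 ± 0.12 at 24 hpf, and the difference of -0.80 ± 0.16 (adjusted p = 0.0236) was the only negative call of the list. Its second probe gave a called -0.87.

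For fkbp5 a single array decided the call, and for klf9 that array and the background correction both moved it. The gene fkbp5 encodes a chaperone that lowers the receptor's affinity for hormone. Its signals were 11.1, 11.2 and 11.4 in 72 hpf beclomethasone and 0.485, 0.414 and 0.747 in 72 hpf DMSO, and 3.58, 4.32 and 3.42 in 24 hpf beclomethasone. In 24 hpf DMSO they were 0.0185, 0.0194 and 0.755, of which only replicate 3 was well above background, so that no size of the 24 hpf effect or of the difference is given. The transcription factor gene klf9 had 1.54, 1.84 and 1.32 in 72 hpf beclomethasone and 0.115, 0.113 and 0.137 in 72 hpf DMSO. It had 0.314, 0.34 and 0.355 in 24 hpf beclomethasone, and no 24 hpf DMSO array was well above background. The rise of klf9 at 24 hpf was at least 5.91-fold, with the gene's own DMSO signal on an array replaced by that array's lowest signal well above background where this was higher. The difference was not called with all arrays (adjusted p = 0.609 for fkbp5 and 0.651 for klf9). It was called as more negative at 72 hpf without 24 hpf DMSO replicate 3 (adjusted p = 0.000475 and 0.000447). For both genes the 24 hpf DMSO signals left in that fit were not well above background. Over the other alternatives the adjusted p lay between 0.586 and 0.914 for fkbp5 and between 0.0252 and 0.892 for klf9. The low value for klf9 came after normexp background correction, with the sign turned. A second klf9 probe detected at both stages gave a difference of 0.34 without a call.

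Targets that act on inflammation, growth and metabolism differed in size. The phosphatase gene dusp1, which switches off MAP kinases, had 8.63, 8.89 and 8.96 in 72 hpf beclomethasone and 2.81, 2.48 and 2.83 in 72 hpf DMSO, against 9.24, 11.2 and 10.3 in 24 hpf beclomethasone and 8.07, 7.39 and 7.26 in 24 hpf DMSO. The DMSO level was thus lower at 72 than at 24 hpf, and beclomethasone brought the 72 hpf arrays close to the 24 hpf range. The difference was 1.27 ± 0.12 (adjusted p = 0.000848). This was called again with slide as a block, at 1.36. The kinase gene sgk1, which regulates ion transport, rose by 1.39 ± 0.06 at 72 hpf and 0.57 ± 0.06 at 24 hpf, a difference of 0.81 ± 0.09 (adjusted p = 0.00157). Its other probe detected at both stages gave 0.51 without a call. Named here after their values were seen are the remaining positive calls, the repressor gene zbtb16a, at 1.06 ± 0.10, and nfkbiab, at 0.76 ± 0.10, whose product holds NF-κB in the cytoplasm.

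Several well-known targets had no called difference. The gene cebpd, a transcription factor of the acute phase, had effects of 2.08 ± 0.13 at 72 hpf and 1.94 ± 0.13 at 24 hpf and a difference of 0.14 ± 0.18. Its other probes gave larger effects at 24 hpf, 2.97 and 2.78, and differences of -0.83 and -0.65 without a call, so that the sign depends on the probe. For tsc22d3, which restrains inflammation, the effects were 2.12 ± 0.18 and 1.31 ± 0.18, and the difference of 0.81 ± 0.25 had an adjusted p of 0.0844. It was called without 24 hpf DMSO replicate 3, at 1.01. The growth brake ddit4, an inhibitor of mTOR signalling, had 6.67, 11 and 15.7 in 72 hpf beclomethasone and 0.383, 0.601 and 1.09 in 72 hpf DMSO, and 9.53, 9.65 and 9.17 in 24 hpf beclomethasone and 1.7, 1.67 and 2.74 in 24 hpf DMSO. Same-numbered arrays of 72 hpf were low or high together. The difference of 1.80 ± 0.57 was not called (adjusted p = 0.0906), but it was with the replicate number as a block (adjusted p = 0.0345), which was the lowest value over the alternatives and 0.574 the highest. The gluconeogenesis gene pck1 had effects of 2.75 ± 0.56 and 1.66 ± 0.56, the second not called, and its other probe gave a difference of -1.22 against 1.09 for the probe used. Neither the metallothionein gene mt2 nor the clock gene per1a was called at either stage, with differences of 0.39 ± 0.39 and 1.07 ± 0.39. With slide as a block the differences were 0.08 for cebpd, 0.99 for ddit4, 0.88 for mt2 and -0.00678 for per1a.

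Heat shock and unfolded protein genes had 16 positive calls and 0 negative among 34 members, against 2.93% and 4.49% over all genes and probes. It was the list with the most positive calls. These genes encode chaperones and the sensors of misfolded protein. At 72 hpf 10 rose and 1 fell, and at 24 hpf 3 rose and 20 fell. The median difference was 0.54, and 0.59 with slide as a block, where 1 gene passed. Without 24 hpf DMSO replicate 3, 22 were positive, and with the replicate number as a block 6 were. The cytosolic Hsp70 gene hspa1b had 0.49, 0.551 and 0.924 in 72 hpf beclomethasone and 0.126, 0.117 and 0.119 in 72 hpf DMSO, against 0.0664, 0.0603 and 0.0692 in 24 hpf beclomethasone and 0.0583, 0.0629 and 0.0799 in 24 hpf DMSO. Its difference was 2.41 ± 0.30 (adjusted p = 0.00301). Its relative hsp70.3 had 8.34, 10.6 and 12.1 in 72 hpf beclomethasone and 4.18, 3.78 and 3.38 in 72 hpf DMSO, with overlapping groups at 24 hpf, and a difference of 1.63 ± 0.30. The inducible Hsp70 genes are near-identical, and their signals may be shared.

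The chaperone hsp90aa1.2 reached its difference the other way, by a fall at 24 hpf. It had 14.2, 14.3 and 13.1 in 72 hpf beclomethasone and 10.5, 10.7 and 9.13 in 72 hpf DMSO, and 4.96, 4.57 and 5.13 in 24 hpf beclomethasone and 13.3, 10.5 and 8.65 in 24 hpf DMSO. The fall at 24 hpf was called (-1.13 ± 0.14), the change at 72 hpf was not, and the difference was 1.59 ± 0.20. Its other probes gave differences of 0.82, 1.03 and 0.50, the last without a call, and smaller effects at 24 hpf of -0.24, -0.43 and 0.19. Since this chaperone also holds the unbound glucocorticoid receptor, it belongs to the receptor's own machinery. The list thus held genes that rose at 72 hpf and others that fell at 24 hpf.

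DNA replication and cell cycle genes gave 21 negative calls and 0 positive among 48 members, against 4.49% and 2.93% over all genes and probes. At 72 hpf 35 fell and 0 rose, and at 24 hpf 19 fell and 0 rose. The median effect was -0.62 at 72 hpf and -0.22 at 24 hpf. The median difference was -0.38, and -0.46 with slide as a block, where 0 were called and 24 had an unadjusted p below 0.05. Without 24 hpf DMSO replicate 3 there were 22 negative calls. The gene mcm4, a subunit of the helicase that opens DNA, had 3.42, 3.5 and 3.51 in 72 hpf beclomethasone and 5.97, 6.17 and 6.17 in 72 hpf DMSO, but 19.3, 20.4 and 20.9 in 24 hpf beclomethasone and 19.1, 20.9 and 20.4 in 24 hpf DMSO. The 24 hpf groups overlapped at a level well above that of 72 hpf, and the difference was -0.82 ± 0.08 (adjusted p = 0.0012). For gins2, a helicase partner, signals were 1.19, 1.03 and 1.13 in 72 hpf beclomethasone and 2.65, 2.39 and 2.46 in 72 hpf DMSO, against 6.75, 6.17 and 6.52 in 24 hpf beclomethasone and 8.22, 8.82 and 8.01 in 24 hpf DMSO. It fell at both stages and by more at 72 hpf, with a difference of -0.80 ± 0.11. The single-strand binding protein gene rpa2 had a difference of -0.79 ± 0.18 although neither effect alone was called. The maintenance methyltransferase dnmt1, from the chromatin list, fell at both stages (effects of -0.81 at 72 hpf and -0.34 at 24 hpf) and had a difference of -0.47 ± 0.09. That list had 2 negative calls among 20, near the 7.42% called over all genes and probes.

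Brakes on growth and translation had 5 positive calls and 0 negative among 24 members, against 2.93% and 4.49% over all genes and probes. The list's median difference was 0.28, and 0.33 with slide as a block, where 0 were called and 8 had an unadjusted p below 0.05. Without 24 hpf DMSO replicate 3 there were 8 positive calls. The antiproliferative gene btg2 had 4.62, 5.04 and 4.74 in 72 hpf beclomethasone and 2.62, 2.49 and 2.88 in 72 hpf DMSO, and 17, 15.4 and 16.3 in 24 hpf beclomethasone and 18.5, 18.9 and 18.7 in 24 hpf DMSO. It rose at 72 hpf only, and its difference was 1.05 ± 0.10 (adjusted p = 0.000845). The p53 ligase gene mdm2 had a difference of 0.66 ± 0.13, with a called effect of 0.62 ± 0.10 at 72 hpf. For btg1 the difference was 0.45 ± 0.09, while a second probe gave 0.00.

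Red blood cell genes gave 10 negative calls and 0 positive among 25 members, against 4.49% and 2.93% over all genes and probes. At 24 hpf 18 rose and 0 fell, and at 72 hpf 2 rose and 4 fell. The median effect was -0.11 at 72 hpf and 0.61 at 24 hpf. The median difference was -0.62, and -0.67 with slide as a block, where 0 were called and 14 had an unadjusted p below 0.05. Without 24 hpf DMSO replicate 3 there were 12 negative calls. Besides gata1a, the carbonic anhydrase gene cahz had 1.68, 1.99 and 1.85 in 72 hpf beclomethasone and 1.72, 2.33 and 2.05 in 72 hpf DMSO, and 0.922, 0.851 and 0.808 in 24 hpf beclomethasone and 0.432, 0.45 and 0.373 in 24 hpf DMSO. Groups overlapped at 72 hpf and did not at 24 hpf, and the difference was -1.18 ± 0.17 (adjusted p = 0.00635), with -0.53 and no call from a second probe. The nucleotidase gene nt5c2l1 had a difference of -0.85 ± 0.18, with other probes at -1.01, which was called, and 0.12, which was not. Whether more red blood cells or more RNA per cell underlie these signals cannot be told apart.

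Markers of other blood and vessel cells had fewer calls, most of them negative. Among 14 leukocyte genes 3 were called negative and 0 positive, against 4.49% and 2.93% over all genes and probes. The median difference of the leukocyte genes was -0.40. The myeloperoxidase gene mpx, of neutrophils, had 0.24, 0.253 and 0.251 in 72 hpf beclomethasone and 0.289, 0.296 and 0.286 in 72 hpf DMSO, and 0.104, 0.0841 and 0.079 in 24 hpf beclomethasone and 0.0651, 0.0649 and 0.0685 in 24 hpf DMSO. Its difference was -0.65 ± 0.13. Other probes of mpx, not detected at both stages, gave 0.13 and 0.07 without a call. The gene lcp1, an actin bundler of leukocytes, had -0.77 ± 0.16 with -0.24 and no call from a second probe. The actin regulator coro1a had -0.59 ± 0.14, with -1.11 and no call from a second probe. Among 20 vessel genes 5 were negative and 1 positive. The regulator etsrp, which specifies vessel and blood precursors, had effects of -0.04 ± 0.12 at 72 hpf and 0.76 ± 0.12 at 24 hpf and a difference of -0.80 ± 0.18, and the lymphatic and venous receptor gene flt4 had -0.70 ± 0.10. The positive call was kdr, a receptor for vascular growth factor, at 0.72 ± 0.15 on signals of 0.0896, 0.0852 and 0.0871 in 72 hpf beclomethasone and 0.0442, 0.0474 and 0.0488 in 72 hpf DMSO. Another kdr probe detected at both stages gave 0.52 without a call. With slide as a block 0 of the leukocyte or vessel genes were called, and 6 and 7 had an unadjusted p below 0.05.

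Most sterol synthesis genes rose at 72 hpf, where 5.68% of all genes and probes did. Of 24 members, 16 rose and 0 fell at 72 hpf and 7 rose and 0 fell at 24 hpf. The median effect was 1.03 at 72 hpf and 0.34 at 24 hpf. The difference was called positive for 5 and negative for 0, against 2.93% and 4.49% over all genes and probes. The list's median was 0.58. With slide as a block the median was 0.25 and 0 were called. In that fit 4 had an unadjusted p below 0.05, near the share of 3432 in 20931 over all genes and probes. Without 24 hpf DMSO replicate 3 there were 7 positive calls. The gene cyp51, which removes a methyl group from lanosterol, had 3, 3.1 and 3.78 in 72 hpf beclomethasone and 0.765, 0.751 and 1.04 in 72 hpf DMSO, and 1.6, 1.46 and 1.55 in 24 hpf beclomethasone and 0.915, 0.809 and 0.838 in 24 hpf DMSO. Groups were separate at both stages, and the difference was 1.11 ± 0.19 (adjusted p = 0.0122), with a called 1.3 and uncalled 0.61 and 0.86 from other probes. The sensor gene insig1, which holds the sterol regulator in the endoplasmic reticulum, had 1.83, 2.08 and 2.17 in 72 hpf beclomethasone and 0.458, 0.451 and 0.493 in 72 hpf DMSO, and its difference was 1.29 ± 0.18, with called values of 1.16 and 0.93 from other probes. The isomerase gene ebp had a difference of 1.16 ± 0.27, and 0.63 with slide as a block.

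**Figure D4:**
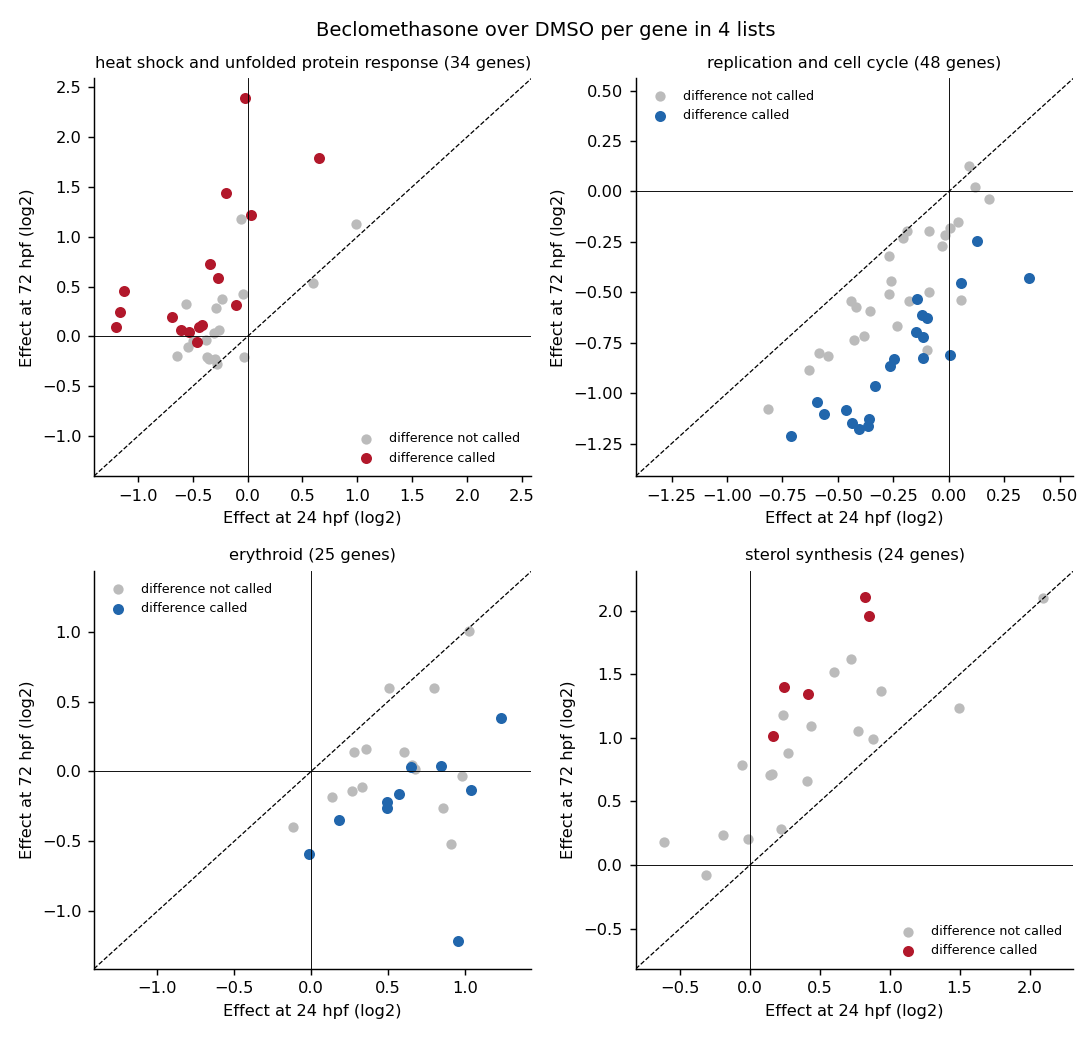
Effect at 72 hpf (vertical axis) against 24 hpf (horizontal axis) per gene, as log2 of beclomethasone over DMSO, in 4 gene lists. Coloured points have a called difference, 16 in heat shock and unfolded protein genes, 21 in replication and cell cycle, 10 in red blood cell and 5 in sterol synthesis genes, and the dashed line marks equal effects.

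Most genes of sugar breakdown rose at 24 hpf. Of 31 glycolysis genes 22 rose at 24 hpf and 5 at 72 hpf, and 0 fell at either stage. The difference was negative for 6 and positive for 1, with a median of -0.34, and -0.24 with slide as a block, where 0 were called and 10 had an unadjusted p below 0.05. The phosphofructokinase gene pfkmb had 0.472, 0.543 and 0.517 in 72 hpf beclomethasone and 0.422, 0.456 and 0.518 in 72 hpf DMSO, and 0.402, 0.466 and 0.37 in 24 hpf beclomethasone and 0.139, 0.155 and 0.0957 in 24 hpf DMSO. Its difference was -1.55 ± 0.24 (adjusted p = 0.00832). The isomerase gene gpia had -1.30 ± 0.18 and pfkma -1.15 ± 0.21, and the isomerase had 3.07, 2.88 and 2.51 in 24 hpf beclomethasone against 0.905, 1.17 and 1.26 in 24 hpf DMSO. The positive call, named after its value was seen, was pfkfb4b, at 0.86 ± 0.21, whose enzyme sets the level of the activator of phosphofructokinase. Over all genes and probes 10.9% rose at 24 hpf and 4.49% of differences were negative. Of 54 oxidative phosphorylation genes 14 rose and 1 fell at 24 hpf, and 0 changed at 72 hpf. For these genes 5 differences were negative and 0 positive, with a median of -0.19. These included the complex I subunit genes ndufs7 at -0.91 ± 0.20, ndufv1 at -0.85 ± 0.17 and ndufa9a at -0.80 ± 0.18.

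Some muscle genes rose at 24 hpf, where 10.9% of all genes and probes did. Of 42 skeletal muscle genes 19 rose and 3 fell at 24 hpf, and 0 rose and 2 fell at 72 hpf. The difference was negative for 8 and positive for 0, with a median of -0.27 and -0.25 with slide as a block, where 2 passed. Besides tnni2b.2, the fast troponin gene tnni2a.4 had 104, 103 and 91.4 in 72 hpf beclomethasone and 104, 104 and 97.7 in 72 hpf DMSO, against 37.9, 39.1 and 28.3 in 24 hpf beclomethasone and 10.7, 16.6 and 17 in 24 hpf DMSO, and a difference of -1.30 ± 0.26, with a called -1.22 and an uncalled -0.40 from other probes. The exception in form was abrab, whose product binds actin at the sarcomere. It had 0.0867, 0.0778 and 0.0754 in 72 hpf beclomethasone and 0.469, 0.442 and 0.481 in 72 hpf DMSO, and 0.275, 0.263 and 0.264 in 24 hpf beclomethasone and 0.53, 0.566 and 0.445 in 24 hpf DMSO. It fell at both stages, more so at 72 hpf, and its difference of -1.60 ± 0.13 (adjusted p = 0.000391) stayed called with slide as a block, at -1.70. Of 15 heart muscle genes 9 rose and 0 fell at 24 hpf, 0 changed at 72 hpf and 4 differences were negative. They included the cardiac actin gene actc1a at -1.06 ± 0.21, whose other probes gave -1.94, -0.27 and -0.37, the troponin gene tnni4b.2 at -0.85 ± 0.14 and the myosin gene myh7 at -0.66 ± 0.12. The ubiquitin ligase gene fbxo40.1 was the only call among 14 genes of muscle atrophy, at -0.59 ± 0.12, with -0.03 from a second probe. That count is near the 7.42% called over all genes and probes.

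At 24 hpf, when the liver is only a bud, some liver genes rose, as did 10.9% of all genes and probes. Of 27, 9 rose and 0 fell at 24 hpf, 1 rose and 0 fell at 72 hpf, and 4 differences were negative and 0 positive, with a median of -0.33, and -0.48 with slide as a block, where 0 were called and 7 had an unadjusted p below 0.05. The protease inhibitor gene serpina1 had 24.5, 27.6 and 27.9 in 72 hpf beclomethasone and 25.3, 30 and 27.9 in 72 hpf DMSO, against 8.31, 6.89 and 7.33 in 24 hpf beclomethasone and 3.98, 4.2 and 4.17 in 24 hpf DMSO. Its difference was -0.92 ± 0.13, with -0.37 and no call from a second probe, and that of its relative serpina1l, was -0.71 ± 0.13. The urate oxidase gene uox had -1.38 ± 0.34 (adjusted p = 0.0467).

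Ionocyte and skin genes went both ways. Ionocytes are the skin cells that exchange salts and acid with the water. Of 21 ionocyte genes 5 differences were negative and 1, rhcga, positive, with a median of -0.57, and -0.88 with slide as a block, where 0 were called and 8 had an unadjusted p below 0.05. The sodium pump gene atp1a1a.3 had 1.65, 1.85 and 1.55 in 72 hpf beclomethasone and 1.03, 1.39 and 1.13 in 72 hpf DMSO, and 0.307, 0.315 and 0.234 in 24 hpf beclomethasone and 0.0893, 0.0896 and 0.0937 in 24 hpf DMSO. It rose at both stages and by more at 24 hpf, and its difference was -1.12 ± 0.20. The ionocyte regulator foxi3a rose at 24 hpf only, with a difference of -1.08 ± 0.21. Of 23 epidermis genes 3 were positive and 5 negative, but 4 and 2 with median centring, 3 and 0 with the replicate number as a block and 1 and 0 with slide as a block. The gene evpla encodes envoplakin, a plakin of cell junctions in the skin. It had 1.96, 2.51 and 1.76 in 72 hpf beclomethasone and 1.37, 1.74 and 1.54 in 72 hpf DMSO, and 1.17, 1.17 and 0.985 in 24 hpf beclomethasone and 2.69, 2.55 and 2.64 in 24 hpf DMSO. It fell at 24 hpf, and its difference was 1.66 ± 0.20 (adjusted p = 0.00242), with called values of 1.75 and 1.64 from other probes. The annexin gene anxa1b had -1.08 ± 0.23 through a rise at 24 hpf.

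Clock, hypoxia and immediate early genes held strong responders at both stages. Among 27 clock genes 2 differences were positive and 3 negative. The repressor gene bhlhe41 rose at 72 hpf (1.88 ± 0.13) without a call at 24 hpf, a difference of 1.54 ± 0.18 (adjusted p = 0.00248). The nuclear receptor gene nr1d2a had 4.88, 4.79 and 4.72 in 72 hpf beclomethasone and 1.08, 0.784 and 1.26 in 72 hpf DMSO, and 0.731, 0.757 and 0.674 in 24 hpf beclomethasone and 0.0522, 0.0677 and 0.0694 in 24 hpf DMSO. Its difference was -1.29 ± 0.24, but other probes gave 0.21 and -0.21 without calls. The cryptochrome gene cry4 rose by 0.88 ± 0.13 at 72 hpf and 2.04 ± 0.13 at 24 hpf, a difference of -1.16 ± 0.19. Of 15 hypoxia genes 10 rose at 72 hpf and 9 at 24 hpf, and 2 differences were positive and 2 negative. The factor gene hif1al had 2.36, 2.22 and 2.19 in 72 hpf beclomethasone and 0.597, 0.552 and 0.531 in 72 hpf DMSO, and 1.85, 2.13 and 2.16 in 24 hpf beclomethasone and 1.61, 1.43 and 1.42 in 24 hpf DMSO. Its difference of 1.55 ± 0.12 (adjusted p = 0.000245) stayed called with slide as a block, at 1.77. Its relative epas1b had a difference of 0.83 ± 0.10, with a rise at 72 hpf and a fall at 24 hpf. A second epas1b probe gave an uncalled difference of 0.53 and an effect of only -0.10 at 24 hpf. The mitophagy receptor gene bnip3lb rose by more at 24 hpf (-1.32 ± 0.14). Among 24 immediate early genes 3 were positive and 3 negative. The flow-sensitive factor gene klf2a had 1.54 ± 0.18 and the nuclear receptor gene nr4a1, which rose at both stages, -0.72 ± 0.14. A second nr4a1 probe gave -0.70 without a call.

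Inflammation genes went both ways. Among 21, 3 were positive and 2 negative, with a median of -0.12 that was 0.17 with slide as a block and 0.09 without 24 hpf DMSO replicate 3, so that the list has no stable direction. The NF-κB subunit gene rel had 2.56, 3.26 and 3.44 in 72 hpf beclomethasone and 1.25, 1.3 and 1.94 in 72 hpf DMSO, and 3.62, 3.67 and 3.43 in 24 hpf beclomethasone and 0.652, 0.651 and 0.601 in 24 hpf DMSO. It rose at both stages and more at 24 hpf, and its difference of -1.43 ± 0.23 (adjusted p = 0.00972) stayed called with slide as a block, at -1.85. The nitric oxide synthase gene nos2b fell at 24 hpf, to 0.118, 0.135 and 0.129 in beclomethasone against 0.497, 0.354 and 0.334 in DMSO, and its difference was 1.46 ± 0.34. At 72 hpf it had 0.0214, 0.0222 and 0.0273 in beclomethasone and 0.0258, 0.0184 and 0.0375 in DMSO. These overlapped near the lower end of the array's range, so that a fall at 72 hpf could be missed. The prostaglandin synthase gene ptgs2b had 0.81 ± 0.19, with 0.71 and no call from a second probe. Among 10 genes of steroid synthesis and the stress axis the single call was cyp17a1, which makes steroid precursors, at -0.96 ± 0.22 through a fall at 72 hpf. A count of 1 in 10 is near the 7.42% called over all genes and probes. Hedgehog genes gave 1 positive and 1 negative call among 25, near the shares over all genes and probes. The calls were the inhibitor sufu at 0.52 ± 0.08, with 0.11 and 0.43 from other probes, and the ligand gene shhb at -0.43 ± 0.08. Of 33 synapse genes 2 were called, both positive, which is near the 7.42% called over all genes and probes. They were the glutamate decarboxylases of GABA synthesis. The gene gad3 had 0.152, 0.143 and 0.16 in 72 hpf beclomethasone and 0.141, 0.117 and 0.139 in 72 hpf DMSO, and 0.136, 0.131 and 0.127 in 24 hpf beclomethasone and 0.459, 0.458 and 0.368 in 24 hpf DMSO. Its difference was 1.90 ± 0.15 (adjusted p = 0.000282), called again with slide as a block at 1.77, and gad2 had 0.61 ± 0.15, and 0.37 with slide as a block, with 8 other probes between -0.14 and 1.26 of which 0 were called.

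Transport and metabolism genes added single responders. Of 29 solute carriers 7 differences were positive and 2 negative. The sugar transporter gene slc2a12 had 2.97, 2.44 and 3.66 in 72 hpf beclomethasone and 0.701, 0.684 and 0.705 in 72 hpf DMSO, and 0.561, 0.493 and 0.473 in 24 hpf beclomethasone and 0.272, 0.282 and 0.243 in 24 hpf DMSO. It rose at both stages, and its difference was 1.16 ± 0.19 (adjusted p = 0.01). The amino acid carriers slc16a10 and slc1a5 had differences of 0.95 ± 0.15 and 0.90 ± 0.20. A second slc16a10 probe gave 0.70 without a call. Among 24 genes of gluconeogenesis and amino acid nitrogen 2 were positive and 1 negative. Glutamine synthetase, glulb, had 82.2, 72.6 and 81.6 in 72 hpf beclomethasone and 38.5, 34.4 and 33.6 in 72 hpf DMSO, and overlapping 24 hpf groups of 74.1, 73 and 68.5 in beclomethasone and 76.1, 72.3 and 73.6 in DMSO. Its difference of 1.19 ± 0.11 (adjusted p = 0.00061) stayed called with slide as a block, at 1.22, and 1 other probe gave a called 1.19 while the others gave 0.54 and 0.47. The asparagine synthetase gene asns had 0.57 ± 0.11 and the fructose bisphosphatase gene fbp1a -0.61 ± 0.12. A second asns probe gave 0.47 without a call. Among 23 xenobiotic response genes 2 were positive and 2 negative. The detoxifying enzyme gene cyp1a had -1.61 ± 0.29, with -0.78 and 0.15 and no call from other probes, gstp1.2 had -0.64 ± 0.12 and tiparp 0.71 ± 0.14, with 0.11 and 0.08 from other probes. Of 28 lipid transport genes 2 were negative, the fatty acid receptor gene cd36 at -1.08 ± 0.13, called again with slide as a block at -1.24, and the carrier gene apoda.1 at -0.64 ± 0.14. The count of the lipid transport list is near the 7.42% called over all genes and probes.

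In 6 lists limma called 0 differences with all 12 arrays. Of 75 cytosolic ribosomal protein genes 16 had an unadjusted p below 0.05, as did 3 of 25 lens crystallins and 3 of 21 collagen and cartilage genes. The same held for 4 of 18 segmentation, 1 of 9 hatching gland and 0 of 12 exocrine pancreas genes. Over all genes and probes 5768 of 20931 had an unadjusted p below 0.05, a larger share than in any of these 6 lists. Without 24 hpf DMSO replicate 3, negative differences were called for 2 exocrine pancreas genes. There was also 1 each among the segmentation, hatching gland, and collagen and cartilage genes. In visual genes the single call among 26 was pde6ha. Among 13 insulin-like growth factor genes it was igfbp1b. For both lists the count is near or below the 7.42% called over all genes and probes.

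The fit with slide as a block called 3 receptor targets and 2 skeletal muscle genes. It called 1 gene each among epidermis, heat shock, hypoxia, immediate early, inflammation, synapse, lipid transport and gluconeogenesis genes, and 0 in the other lists. With the replicate number as a block, positive calls were 7 in receptor targets, 6 in heat shock, 5 in sterol synthesis and 2 in growth brake genes. Negative calls were 13 in replication and cell cycle, 7 in red blood cell, 5 in liver and 3 in glycolysis genes. There were also 3 in skeletal muscle, 2 in ionocyte, 1 in heart muscle and 1 in vessel genes.

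**Figure D5:**
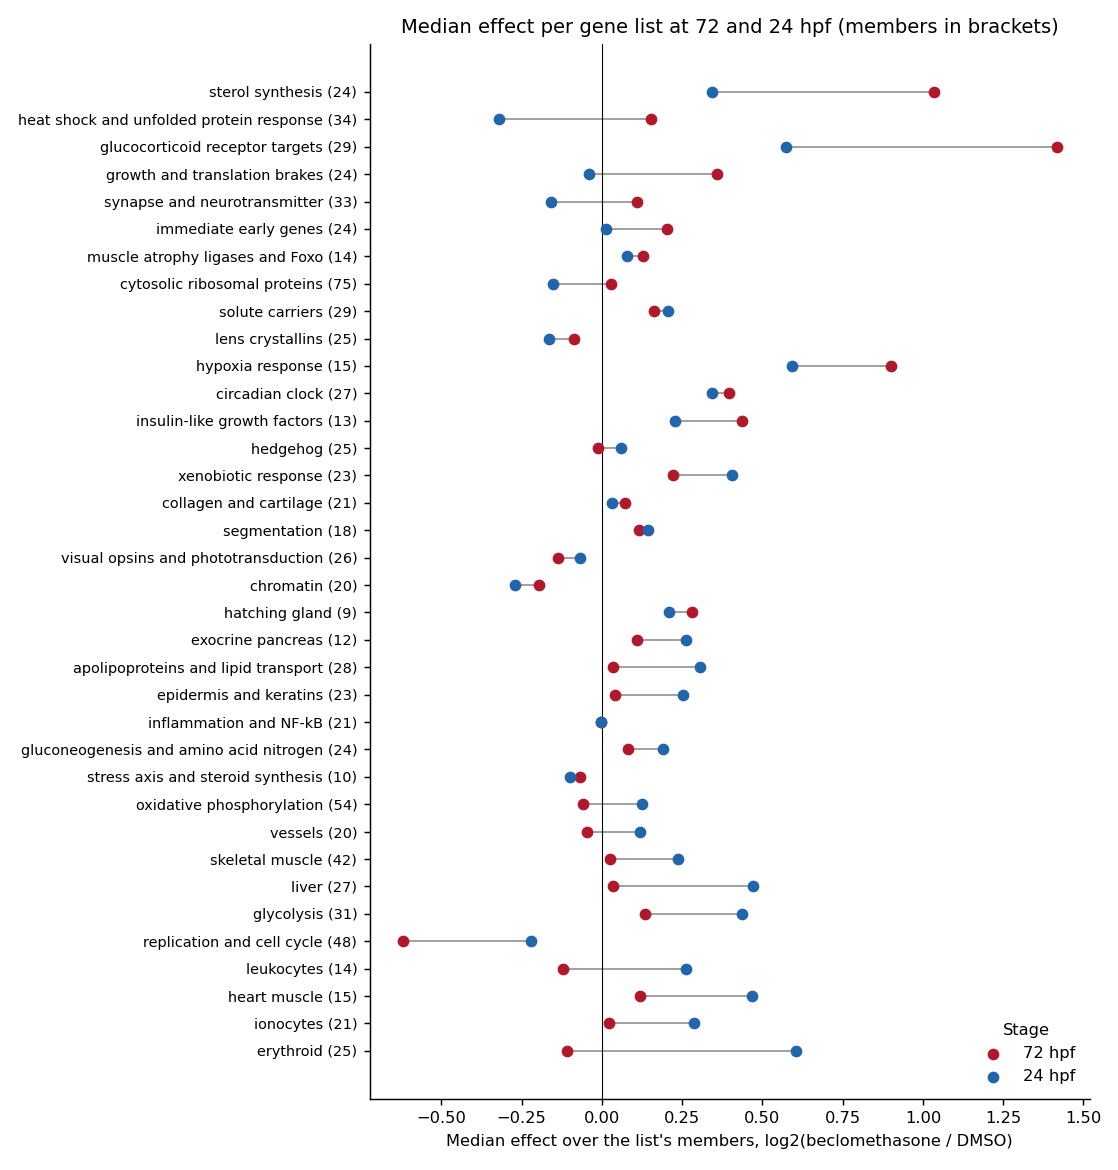
Median effect of beclomethasone over the members of each gene list at 72 hpf (red) and 24 hpf (blue), as log2 of beclomethasone over DMSO, with the number of members in brackets. Lists are sorted by the median difference between the stages, from sterol synthesis at the top (0.58) to red blood cell genes at the bottom (-0.62).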

How the data were processed

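Per the file headers, the authors read each 1-colour array with Agilent Feature Extraction 10.7.1.1, whose processed intensity is background-subtracted and detrended within the array but not scaled between arrays. A second file, a log2 table that the authors deposited by steps not given in the sources used here, served as an alternative. Over 13879 probes each of its columns was closest to the same-numbered array from that stage's other treatment (r = 0.988 to 0.997), and less close to the array of its own name (r = 0.658 to 0.827).

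Here log2 of the processed intensity minus each array's 75th percentile over non-control spots was used, without flagged spots (14 to 79 per array). Of 43603 probes, 25069 were named through RefSeq accessions, for 12858 genes, and 1912 probes with such an accession were not matched. Probes well above background on all 3 arrays of at least 1 group were tested, with the brightest probe for each gene. Where a called gene had other probes detected at both stages, which held for 545, all of them had the same sign in 467, and another probe was called with the opposite sign in 2. A model of 4 group means was fitted with limma 3.58.1 in R 4.3.3 (8 residual degrees of freedom, eBayes), and p-values were adjusted by Benjamini and Hochberg's method over the 25164 genes and unnamed probes. The scripts were tested on simulated data. The number of arrays limits the precision.

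Alternatives were fits without each array, with slide (6 residual degrees of freedom) or replicate number as a block, other scaling, normexp background correction (offset 50, on median signals) and other filters. Same-numbered arrays deviated together at 72 hpf (r between 0.547 and 0.601), where the labels give no reason. The members and the 36 gene lists were chosen with earlier results of these data known. The genes named are the 10 largest differences of each sign called with and without 24 hpf DMSO replicate 3 in genes measured in all 4 groups, up to 3 such calls per list, up to 4 opposite responses, and 11 known targets or related genes whatever their test.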

Additional observations from a re-analysis of the deposited data

Results flagged for a closer look

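The difference between the 2 stages was itself tested in the limma fit as an interaction, and it passed for 90 of the 99 genes named here. They are given here for a closer look, as the effect at 72 hpf minus the effect at 24 hpf on the log2 scale. All 90 differences kept their sign in every alternative run with the scanner files' labels, and 12 passed the test with slide as a block. The genes were chosen by calls on these same arrays, so that the kept signs are no independent test.

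In skin and ion transport the difference was 4.97 for rhcga, 3.07 for itga6b, 2.91 for itgb4 and 1.66 for evpla. The others were -1.12 for atp1a1a.3, -1.08 for foxi3a and -1.08 for anxa1b. Among hormone and receptor target genes the difference was 3.02 for igfbp1b, 1.89 for pdk2b, 1.27 for dusp1, 0.81 for sgk1, -0.8 for hsd11b2 and -0.96 for cyp17a1. For chaperones the values were 2.41 for hspa1b, 1.63 for hsp70.3 and 1.59 for hsp90aa1.2. Replication, chromatin and growth brake genes had differences of -0.82 for mcm4, -0.8 for gins2, -0.79 for rpa2 and -0.47 for dnmt1. The others were 1.05 for btg2, 0.66 for mdm2 and 0.45 for btg1. Red blood cell, leukocyte and vessel genes had differences of -2.16 for gata1a, -1.18 for cahz, -0.85 for nt5c2l1, -0.77 for lcp1 and -0.65 for mpx. The others were -0.59 for coro1a, -0.8 for etsrp, 0.72 for kdr and -0.7 for flt4. Muscle genes had differences of -3.65 for tnni2b.2, -1.98 for casq2, -1.6 for abrab, -1.3 for tnni2a.4 and -1.06 for actc1a. The others were -0.85 for tnni4b.2, -0.66 for myh7, -0.59 for fbxo40.1 and -1.77 for asb12b. Sugar breakdown and respiration genes had differences of -1.55 for pfkmb, -1.3 for gpia, -1.15 for pfkma, -0.91 for ndufs7, -0.85 for ndufv1 and -0.8 for ndufa9a.

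Sterol, lipid and liver genes had differences of 1.29 for insig1, 1.16 for ebp, 1.11 for cyp51, -1.86 for ch25hl1.1 and -1.08 for cd36. In addition there were -0.64 for apoda.1, -1.38 for uox, -0.92 for serpina1, -0.71 for serpina1l and 2.51 for g0s2. Clock, hypoxia and early response genes had differences of 1.54 for bhlhe41, -1.29 for nr1d2a, -1.16 for cry4 and 1.55 for hif1al. In addition there were -1.32 for bnip3lb, 0.83 for epas1b, 1.54 for klf2a and -0.72 for nr4a1. Inflammation genes had differences of 1.46 for nos2b, -1.43 for rel, 0.81 for ptgs2b and -1.82 for il15l. Amino acid, solute carrier and detoxification genes had differences of 1.19 for glulb, -0.61 for fbp1a, 0.57 for asns, 1.16 for slc2a12 and 0.95 for slc16a10. The others were 0.9 for slc1a5, -1.61 for cyp1a, 0.71 for tiparp, -0.64 for gstp1.2 and 2.15 for sult2st3. Neural and signalling genes had differences of 1.9 for gad3, 0.61 for gad2, -3.35 for pde6ha, 0.52 for sufu, -0.43 for shhb and 2.41 for rgs2. Other genes had differences of 2.71 for pnp5a, 2.24 for ucp3, -2.21 for ntmt2, -1.98 for b3gnt3.1 and -1.68 for drll.2.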

How the results depend on the processing

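Of the 90 called differences among named genes, 0 turned sign in any alternative with the scanner files' labels. Each alternative reuses arrays on which these genes were chosen, so that this is no independent test. The differences stayed called for 88 with median centring, 84 after normexp and 77 after quantile normalization. With the replicate block 65 stayed called, and with slide as a block 12. With 1 array other than 24 hpf DMSO replicate 3 left out, 57 to 87 stayed called. Without 24 hpf DMSO replicate 3 all 90 did. For most of them a call there was a condition of being named, so that this count is no test. Of the named genes never called in the main fit, fkbp5 turned to 0.18 and klf9 to 0.70 after normexp, and per1a to -0.00678 with slide as a block. The causes were not tested.

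The count of members with a called difference, 1554, ranged from 643 to 2757 when 1 array was left out. It was 2757 without 24 hpf DMSO replicate 3, 822 and 643 without 24 hpf beclomethasone replicates 1 and 2, 878 without 72 hpf DMSO replicate 2, and 801, 707 and 759 without 72 hpf beclomethasone replicates 1, 2 and 3. It was 64 with slide as a block, 2376 after normexp, 2407 with probes well above background on every array, 987 without a filter and 2745 with every probe by itself. The count at 72 hpf, 2547, was 733 with slide as a block and 1492 to 3485 when 1 array was left out, with 1696 without DMSO replicate 1 and 1492 and 1557 without beclomethasone replicates 2 and 3. The count at 24 hpf, 4637, was 860 with slide as a block, 1291 with only its own arrays in the fit, 7660 with every probe by itself, and 2145 to 5821 when 1 array was left out, with 2910 and 2145 without beclomethasone replicates 1 and 2.

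With the replicate number as a block within each stage, the counts were 790 for the difference, 2004 at 72 hpf and 3909 at 24 hpf, with 4 residual degrees of freedom. At 24 hpf same-numbered arrays did not deviate together (r between -0.133 and 0.019), so that there the samples share only a number. A replicate block at 72 hpf only, chosen after seeing the data as were the counts of list calls under other settings, gave 1584, 2728 and 4886.

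Weak signals on 24 hpf DMSO replicate 3 limit what can be said of dim genes at that stage. Slide and treatment can be separated only through 1 beclomethasone array at 24 hpf and 1 DMSO array at 72 hpf, which leaves little power in the blocked fit. Of the 1554 differences 1499 were within 1.5-fold of their value there. Both fits use the same arrays, so that this is no independent support. Why fewer differences were called with slide as a block was not tested.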
